A study of Mus musculus with 72 samples.

Results

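The DNAJC co-chaperones are the genes whose symbol is Dnajc followed by a number and at most 1 letter in the deposited gene count tables of mouse testis, ovary and liver. The rule found 28 genes, each listed in every one of the 7 tables, out of 37108 gene symbols over all tables. It chose names, not values. The study singled out DNAJC genes as a group in the livers of F2 males, so their change in those livers is not independent evidence about the family.

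A J domain is a short helical fold whose conserved histidine, proline and aspartate motif switches on the ATPase of an HSP70 chaperone. The partner then closes on its client protein. The DNAJA and DNAJB classes share further domains with the bacterial founder of the family, whereas DNAJC proteins share the J domain alone, and the rest of each protein carries it to one place or task. Members sit in the endoplasmic reticulum (ER), in mitochondria, on ribosomes and spliceosomes, and on vesicles. In liver and pancreas, which secrete much protein, the ER members help the lumenal HSP70 (Hspa5, also called BiP) to fold new proteins, and in testis the cysteine string proteins Dnajc5b and Dnajc5g are found in germ cells.

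The study asked whether conception by in vitro fertilization (IVF) changed the reproductive tract of males and whether the change reached their offspring. F1 mice came from CF-1 females and SJL/B6 males, which were heterozygous for GFP in both arms. IVF embryos were made with oocytes of superovulated females, cultured to the blastocyst stage and transferred to pseudopregnant recipients, whereas naturals came from mating with neither superovulation nor transfer, so the IVF group stands for the whole procedure. F2 mice were the offspring of 12-week-old males, IVF-conceived or natural, mated with wild-type CF-1 females, and were themselves conceived by mating. Bulk RNA was sequenced from F1 testes at E18.5 (4 naturals and 6 IVF), 12 weeks (5 and 5) and 39 weeks (4 and 6). From F2 mice of 12 weeks it was sequenced from testes (5 and 7), male livers (5 and 5), female livers (5 and 6) and ovaries (4 and 5). In bulk tissue, fewer cells of a type and less RNA per cell cannot be told apart.

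The 72 libraries held 543745 to 90441392 counts, and 2 male IVF livers held under 3000000. Between 60.0% and 94.3% of the low counts of a library were even, so the mates of a read pair were counted separately, and intervals and limits on counts cover counting error only. Adult testes, livers and ovaries expressed the markers of spermatids, hepatocytes and granulosa cells, whereas all 5 spermatid markers were under 1 in E18.5 testes on the scale of CPM, the counts of a gene per 1e6 counts of the TMM-scaled library. The liver libraries stood apart in their trend with GC content, which had the same sign in natural males and IVF females. Whether this trend was technical was not tested. Relative to the mean of their own table, gene levels correlated with GC content at a Spearman rho of 0.44 to 0.53 in natural males and of -0.49 to -0.09 in IVF males. In females the order was the other way round, with -0.64 to -0.34 in naturals and 0.33 to 0.66 in IVF. As each table has its own mean, these values do not put the sexes on a common scale. IVF libraries of male livers were shallower than naturals (543745 to 12624673 against 10391074 to 44069283 counts), and those of female livers were deeper (13815244 to 90441392 against 3947645 to 34149676).

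RefSeq promoters (250 bases before the transcription start, GRCm38.p6, the same assembly as the mm10 build of the counts) were at hand for 20 of the 28 members, in 24 transcripts. The windows shown belong to members that carry the liver results, and to Dnajc27 because it holds the only cAMP response element. They run 5′ to 3′ along the gene's strand, and capitals mark CCAAT and CCACG on either strand, except in Dnajc27, where they mark the cAMP response element TGACGTCA.
Dnajc3, chr14:118937682-118937931, plus strand: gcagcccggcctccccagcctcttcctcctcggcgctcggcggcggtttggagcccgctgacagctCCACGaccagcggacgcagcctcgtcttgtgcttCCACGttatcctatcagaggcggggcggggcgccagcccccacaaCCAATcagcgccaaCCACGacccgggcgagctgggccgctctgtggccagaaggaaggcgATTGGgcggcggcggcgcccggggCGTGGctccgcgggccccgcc
Dnajc25, chr4:59002943-59003162, plus strand: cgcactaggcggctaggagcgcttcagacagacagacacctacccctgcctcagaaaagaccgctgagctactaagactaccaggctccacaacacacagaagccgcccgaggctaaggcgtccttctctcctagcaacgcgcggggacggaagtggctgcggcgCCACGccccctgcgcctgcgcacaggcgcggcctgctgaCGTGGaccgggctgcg
Dnajc21, chr15:10470517-10470766, minus strand: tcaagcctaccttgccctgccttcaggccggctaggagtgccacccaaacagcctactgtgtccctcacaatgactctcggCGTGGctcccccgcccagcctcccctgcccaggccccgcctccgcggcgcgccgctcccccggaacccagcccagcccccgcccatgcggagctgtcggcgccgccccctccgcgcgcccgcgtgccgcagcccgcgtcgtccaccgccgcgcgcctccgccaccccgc
Dnajc1, chr2:18392831-18393080, minus strand: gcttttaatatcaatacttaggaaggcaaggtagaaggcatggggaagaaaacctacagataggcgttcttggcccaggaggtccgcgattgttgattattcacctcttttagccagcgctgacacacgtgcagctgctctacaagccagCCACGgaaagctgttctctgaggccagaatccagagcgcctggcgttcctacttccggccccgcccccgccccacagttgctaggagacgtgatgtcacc
Dnajc14, chr10:128805304-128805553, plus strand: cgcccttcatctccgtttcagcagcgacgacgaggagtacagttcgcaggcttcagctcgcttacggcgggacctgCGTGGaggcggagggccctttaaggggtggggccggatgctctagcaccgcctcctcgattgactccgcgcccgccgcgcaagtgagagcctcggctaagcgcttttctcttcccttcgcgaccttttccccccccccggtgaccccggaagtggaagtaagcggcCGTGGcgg
Dnajc27, chr12:4082324-4082573, plus strand: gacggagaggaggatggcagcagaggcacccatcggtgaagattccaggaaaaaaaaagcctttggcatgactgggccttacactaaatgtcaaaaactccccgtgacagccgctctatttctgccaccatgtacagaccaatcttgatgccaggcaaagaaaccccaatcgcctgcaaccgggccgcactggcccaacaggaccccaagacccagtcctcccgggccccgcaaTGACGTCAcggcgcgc
The Dnajc3 window held the ER stress element, which is CCAAT, 9 bases of any kind and CCACG, starting 105 bases before the transcription start. It was the only member with that element, which 37 of 32851 mouse promoters held (0.113%). CCACG alone was in the promoters of 11 of the 20 members and in 28.3% of all promoters, and CCAAT was in those of 6 members and in 33.8% of all. The heat shock element (GAA, any 2 bases, TTC, any 2 bases and GAA) was in no member's window and in 0.466% of all windows, and the cAMP response element was in 1.55%. Both strands were searched, and a match describes letters and not a bound site. The window of Dnajc25 is shown for its first 220 bases only, cut to keep it out of an annotated exon, and its motifs were searched in all 250. The windows of Dnajc25, so cut, and Dnajc14 lay inside the span of their own genes but outside exons in GENCODE M21. That annotation places an earlier start for both, and the other 4 windows lay in no annotated gene.

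The family divided by tissue before any effect of conception was asked. Per kilobase of transcript, the highest member of natural F2 testes was Dnajc5g, at 119 ± 2.84 CPM per kb (SD, n = 5), followed by Dnajc5b at 84.7 ± 4.30. Both are cysteine string proteins, lipid-anchored proteins of vesicles. In natural male livers the highest was Dnajc22, a membrane protein whose fly relative acts in clathrin-mediated uptake, at 53.5 ± 2.24 CPM per kb, followed by Dnajc3 at 28.8 ± 2.27. In natural female livers Dnajc3 led at 73.6 ± 15.5 and Dnajc22 was at 25.5 ± 3.60. Natural ovaries were led by Dnajc8 (55.9 ± 4.00, n = 4), a spliceosome-associated protein, and Dnajc7 (41.1 ± 4.85), which hands clients between HSP70 and HSP90. The tables were scaled separately, so these orders hold within a tissue. Liver levels also differed with conception: Dnajc22 was at 83.6 CPM in natural and 36.6 in IVF males, and at 39.9 and 74.4 CPM in females.

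**Figure D1:**
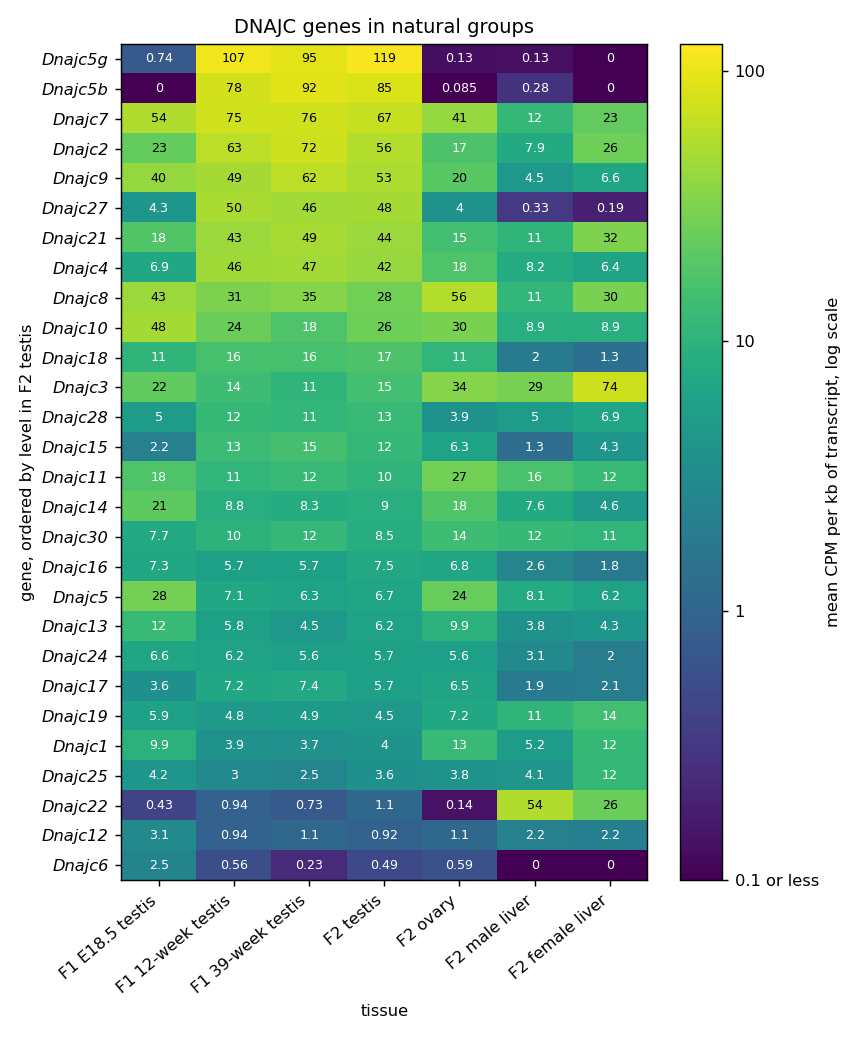
Mean level of each DNAJC gene in the natural animals of each tissue, in CPM per kb of transcript on a log colour scale, with genes in the order of F2 testis. Dnajc5g and Dnajc5b are bright in the adult testes alone, Dnajc22 is brightest in male liver, and Dnajc6 is at 0 in both livers.

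Natural testis and natural liver of F2 males were next fitted together, which gives another CPM scale than that of the single tables. Of the 28 members, 27 differed between the tissues, 16 being higher in testis and 11 lower (edgeR's quasi-likelihood test, adjusted p under 0.05). Of all genes tested 92.5% differed (58.1% higher and 34.4% lower), so the share of members is near the background. The median log2 fold change of the members was 0.41 against 1.25 for all genes, and scaling by size factors moved the all-gene median by 0.358. With the trend of each library with GC content removed, 10 members were higher and 17 lower, and with the trend with gene length removed 9 and 17. Dnajc5g was at 0.377, 0, 0, 0.188 and 1.01 CPM in the livers and at 137, 138, 144, 140 and 137 CPM in the testes. Dnajc5b was at 1.32, 0, 0, 0.125 and 0.754 CPM in liver and at 69.3, 62.2, 65.8, 62.4 and 69.0 CPM in testis. The log2 fold changes were 9.14 ± 0.30 (SE) for Dnajc5g and 7.62 ± 0.40 for Dnajc5b. The counts in liver came from 3 libraries, and the same 3 held spermatid transcripts: the summed level of Acrv1, Tnp1, Tnp2, Prm1 and Prm2 was 74.3, 0.0492, 0, 14.2 and 110 CPM in the natural male livers in the same order. The part of those transcripts in the liver values was not tested. Dnajc6, the auxilin that strips clathrin from vesicles, had no count in any of these livers and was at 1.67, 1.61, 2.24, 1.12 and 3.05 CPM in testis, which is at least 48.4-fold higher against a limit of 3 counts over the liver group. Lower in testis were Dnajc22 (132, 131, 127, 130 and 117 CPM in liver, 0.875, 1.16, 1.36, 1.71 and 1.32 in testis), with a log2 fold change of -6.63 ± 0.13, Dnajc12 and Dnajc19. Dnajc12, a co-chaperone of the hydroxylases of aromatic amino acids, was at 9.99, 8.84, 10.8, 10.2 and 11.4 CPM in liver and at 2.38, 2.41, 2.49, 2.07 and 1.14 in testis (-2.28 ± 0.19). Dnajc19, a part of the motor that draws proteins into mitochondria, was at 40.6, 38.3, 39.5, 44.4 and 39.5 CPM in liver and at 8.59, 7.00, 9.48, 8.65 and 8.26 in testis (-2.27 ± 0.10). None of these values overlapped between the tissues, but these members were picked for large fold. In all, 25 of the 28 members did not overlap, and the share of all genes without overlap was not counted here. The tissues came in separate tables, so tissue and table cannot be told apart.

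Against natural female liver, natural ovary differed in 18 of 26 tested members, 4 being higher and 14 lower, where 77.0% of all genes differed (44.8% higher and 32.2% lower). The median of the members was -0.51 on the log2 scale and that of all genes 0.40, and size factors moved the latter by 0.181 and the split to 6 higher and 12 lower. Dnajc6 had no count in the 5 livers and was at 1.61, 1.12, 1.65 and 2.11 CPM in the ovaries, at least 19.9-fold higher on the same limit. Dnajc27, a small GTPase with a J domain, was at 3.67, 0.986, 0, 1.44 and 0.600 CPM in liver and at 9.76, 10.0, 8.89 and 9.71 in ovary (3.10 ± 0.51). Dnajc18, an ER membrane protein, was at 15.6, 10.3, 8.53, 8.66 and 9.25 CPM in liver and at 32.8, 27.4, 26.9 and 31.5 in ovary (1.53 ± 0.19). These members were separated without overlap. Dnajc22 was at 58.8, 73.4, 63.1, 49.6 and 58.9 CPM in liver and at 0.0959, 0.306, 0.0579 and 0 in ovary (-9.0 ± 0.44). Dnajc25, a membrane protein little studied so far, was at 85.4, 44.7, 77.2, 73.1 and 72.4 CPM in liver and at 7.95, 7.95, 7.45 and 8.32 in ovary (-3.15 ± 0.19). Dnajc3 was at 589, 370, 669, 649 and 605 CPM in liver and at 93.7, 97.4, 85.3 and 88.4 in ovary (-2.66 ± 0.19). The last 3 members did not overlap either, but all members named here were picked for large fold. Of the 26 tested members 16 did not overlap, and the share of all genes was not counted.

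Between E18.5 and 12 weeks, natural F1 testes differed in 24 of 28 members, with 18 higher and 6 lower in the adult, where 84.3% of all genes differed (45.1% higher and 39.2% lower). The median log2 fold change was 0.89 for the members and 0.15 for all genes, and size factors moved the latter by 0.111. All 6 members of the nuclear, RNA and ribosome group were higher in the adult, although Dnajc8, Dnajc17 and Dnajc24 had negative values once the trend of each library with gene length was removed, and Dnajc8 also with the GC trend removed. Of the mitochondrial members 5 of 6 were higher. Dnajc5b had no count at E18.5 and was at 105, 103, 104, 121 and 115 CPM at 12 weeks, at least 777-fold higher against a limit of 3 counts over the group. Dnajc5g was at 0, 1.29, 0 and 2.27 CPM at E18.5 and at 198, 192, 239, 245 and 265 CPM at 12 weeks (8.13 ± 0.36). Dnajc27 was at 16.1, 15.9, 15.6 and 15.1 CPM before and at 324, 346, 325, 312 and 298 after (4.35 ± 0.09). Lower in the adult were Dnajc6 (12.9, 9.32, 8.77 and 10.1, then 4.30, 5.34, 2.77, 3.71 and 4.19 CPM, -1.33 ± 0.24), Dnajc5 and Dnajc12. Dnajc5, the neuronal cysteine string protein, was at 157, 130, 144 and 145 CPM and then at 63.5, 66.7, 62.3, 60.5 and 62.7 (-1.19 ± 0.08). Dnajc12 was at 8.03, 6.43, 7.36 and 7.05 CPM and then at 3.69, 4.66, 4.77, 2.60 and 3.52 (-0.91 ± 0.26). The ages did not overlap in any of these members, which were picked for large fold. Without overlap were 20 of the 28 members, and the share of all genes was not counted. The summed level of the spermatid markers was 2.25 to 4.66 CPM at E18.5 and 12600 to 14600 CPM at 12 weeks. The E18.5 table was counted on a shorter gene list (25239 against 35976 genes), so age and table cannot be told apart.

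IVF conception left the DNAJC genes found by the rule without a call in F1 testes at any age. At E18.5, 0 of 26 tested members passed edgeR's test at an adjusted p under 0.05, where 1.17% of all genes passed. At 12 weeks it was 0 of 28 (0.746% of all genes), and at 39 weeks 0 of 28 (0.00996%, or 2 genes). By unadjusted p under 0.05 there were 4, 2 and 3 members, where 17.7%, 12.9% and 10.5% of all genes had such a p, and DESeq2 called 0 members at each age. The median log2 fold change of the members was 0.02, 0.02 and 0.01.

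At E18.5 the member of smallest p was Dnajc1, an ER membrane protein that joins ribosomes to BiP. It was at 36.9, 63.6, 60.6 and 55.9 CPM in naturals, and in IVF testes the lowest, median and highest were 63.2, 67.6 and 70.3 CPM. The groups overlapped, and the log2 fold change was 0.30 ± 0.12 (edgeR adjusted p = 0.192). The first natural library was the lowest for Dnajc1. Hepatocyte markers summed to 3.66 to 448 CPM over the natural libraries and to 2.37 to 17.7 CPM over the IVF ones. Their part in the values of Dnajc1 was not tested. Without each library in turn the log2 fold change of Dnajc1 ran from 0.16 to 0.40.

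At 12 weeks it was Dnajc13, an endosomal protein that recruits HSP70 to sorting membranes, at 46.7, 47.9, 50.3, 43.3 and 44.1 CPM in naturals and 41.9, 43.5, 41.7, 36.2 and 36.2 CPM in IVF. The 2 ranges met between 43.3 and 43.5 CPM, and the log2 fold change was -0.22 ± 0.08 (edgeR adjusted p = 0.249). At 39 weeks it was Dnajc6, at 0.729, 1.74, 1.33 and 1.13 CPM in naturals and at 1.78, 2.27 and 3.02 CPM as the lowest, median and highest of IVF. No IVF testis was as low as a natural one, and the log2 fold change was 0.94 ± 0.31 (edgeR adjusted p = 0.315). Dnajc3 also did not overlap at 39 weeks (55.4 ± 3.68 against 67.6 ± 4.61 CPM, SD, n = 4 and 6), which made 2 members of 28 where 3.32% of all genes did not overlap.

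In F2 testes 1 of 28 members passed, against 1.61% of all genes. Dnajc16, an ER membrane protein that limits the size of autophagosomes, was at 49.4, 49.3, 45.3, 37.3 and 43.5 CPM in naturals, and the lowest, median and highest of IVF were 36.0, 37.2 and 39.0 CPM. The fourth natural library lay within the IVF range and the others above it. The mean fell from 44.9 ± 4.99 to 37.3 ± 1.12 CPM (SD), a log2 fold change of -0.27 ± 0.07 (SE, edgeR adjusted p = 0.0433). It was called in 2 of the 12 fits that each left out 1 library. It was not called with the replicate number as a block, a fit without the IVF libraries whose number no natural had. In F2 ovaries 0 of 25 tested members passed, and 0% of all genes did. By unadjusted p it was 0 members and 10.6% of all genes, and by DESeq2 0 members. The member of smallest p was Dnajc8, at 74.4, 76.0, 76.2 and 86.6 CPM in naturals and at 86.0, 81.9, 90.3, 81.2 and 89.8 CPM in IVF, with a log2 fold change of 0.13 ± 0.07 (edgeR adjusted p = 0.522).

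**Figure D2:**
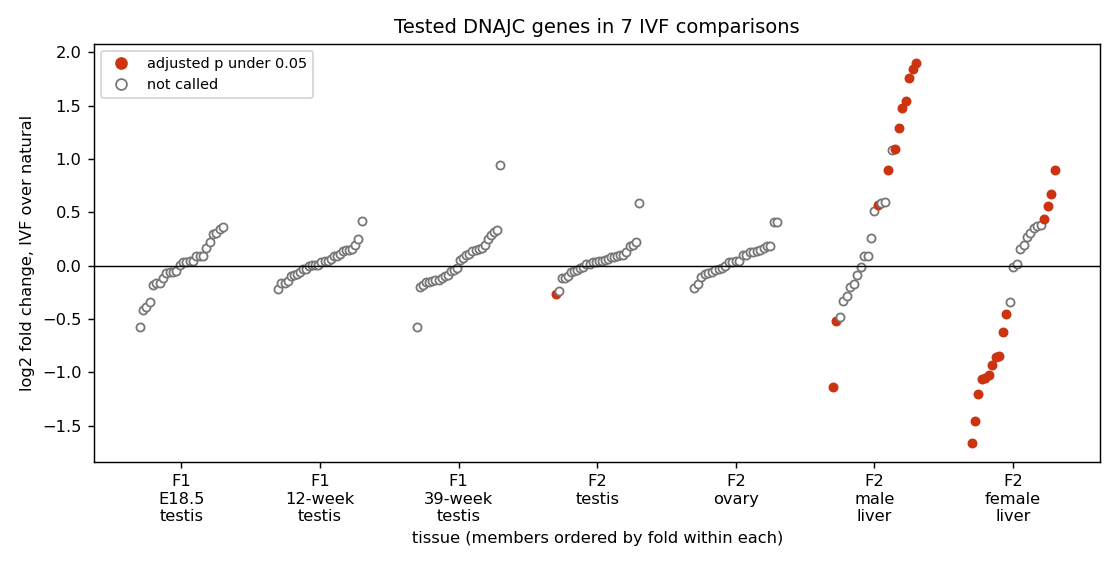
Log2 fold change, IVF over natural, of each tested DNAJC gene in the 7 comparisons, ordered by value within each. Called members (red) are 1 in F2 testis, 11 in F2 male liver and 15 in F2 female liver, and the other comparisons have none.

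Apart from Dnajc16, every call of a member came from the livers of F2 mice, and the members called in both sexes moved in opposite directions. In male livers 11 of 25 tested members passed, 9 being higher in IVF and 2 lower, where 34.4% of all genes passed (16.1% higher and 18.4% lower). In female livers 15 of 25 passed, 4 being higher and 11 lower, where 49.0% of all genes passed (25.4% higher and 23.6% lower). Over 1.5-fold were 9 members in males (31.1% of all genes) and 12 in females (39.4%). The median log2 fold change was 0.51 in males and -0.01 in females, and that of all genes was -0.01 in both. Dnajc5b, Dnajc5g and Dnajc6 were too low to test in either liver. Dnajc6 had no count in the 10 male livers. In females, Dnajc5b and Dnajc5g had none, and Dnajc6 reached 0.124 CPM in IVF livers. The groups did not overlap for 11 members in males (27.0% of all genes) and 7 in females (29.4%).

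**Figure D3:**
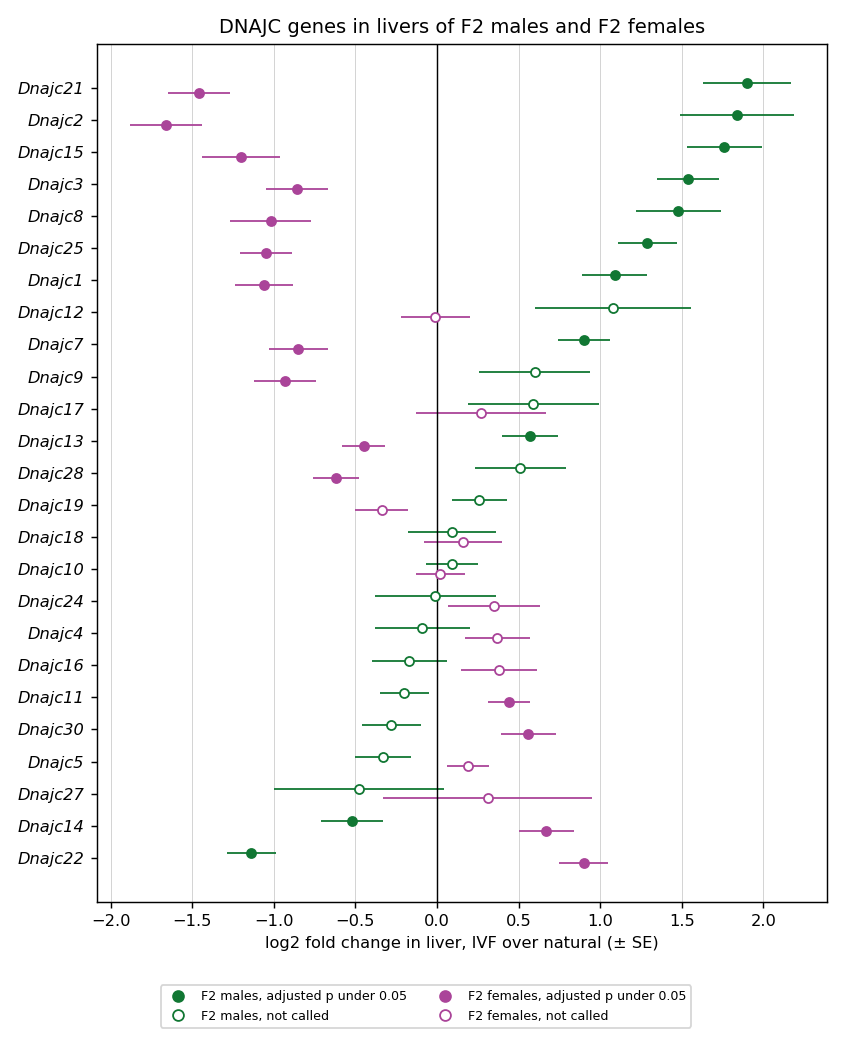
Log2 fold change ± SE, IVF over natural, of the 25 tested DNAJC genes in male (green) and female (purple) F2 livers, with filled points called. From Dnajc21 down to Dnajc1 the male points lie to the right of 0 and the female points to the left, and for Dnajc14 and Dnajc22 the sides are exchanged.

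Among the members listed as ER 5 of 8 passed in each sex (34.4% of all genes in males and 49.0% in females). The list was assigned and not measured, and it includes Dnajc22 and Dnajc25, for which no ER role is given above. Dnajc3, the lumenal BiP partner that also restrains the kinases of the stress response, was at 157, 143, 134, 143 and 163 CPM in natural males and at 429, 634, 381, 400 and 304 CPM in IVF males. Every IVF male lay above every natural male, and the mean rose from 148 ± 11.6 to 430 ± 123 CPM (SD, n = 5 each), a log2 fold change of 1.54 ± 0.19 (SE, edgeR adjusted p = 8.25e-05). In females Dnajc3 was at 391, 241, 443, 425 and 391 CPM in naturals, and the lowest, median and highest of IVF were 151, 207 and 302 CPM. The second natural female lay within the IVF range and the other naturals above it. The log2 fold change was -0.86 ± 0.19 (edgeR adjusted p = 0.00151), and with the GC trend of each library removed it was -0.285 (adjusted p = 0.23). Dnajc3 is the gene whose promoter, printed above, held the ER stress element.

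Dnajc25 was at 16.7, 15.9, 15.6, 17.3 and 16.5 CPM in natural males and at 32.9, 57.8, 38.6, 32.5 and 41.4 CPM in IVF males, without overlap (1.29 ± 0.18, edgeR adjusted p = 0.000144). In natural females it was at 56.7, 29.2, 51.1, 47.9 and 46.8 CPM, and in IVF females the lowest, median and highest were 18.9, 22.5 and 25.8 CPM, again without overlap (-1.05 ± 0.16, edgeR adjusted p = 8.67e-05). Dnajc1 rose from 28.7 ± 1.85 to 60.0 ± 21.0 CPM in males (1.09 ± 0.20) and fell from 64.8 ± 15.9 to 31.0 ± 6.40 CPM in females (-1.06 ± 0.18). Exons of Dnajc25 share 348 bases on the same strand with Gm20503, and those of Dnajc1 share 749 bases on the opposite strand with Mllt10, so reads there may belong to either gene.

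The remaining called members of the ER list, Dnajc22 and Dnajc14, moved the other way. Dnajc22 was at 88.4, 84.5, 83.1, 83.5 and 78.6 CPM in natural males and at 41.2, 37.3, 24.1, 41.2 and 39.0 CPM in IVF males. No value overlapped, and the mean fell from 83.6 ± 3.50 to 36.6 ± 7.15 CPM (-1.14 ± 0.15, edgeR adjusted p = 0.00012). In females it was at 39.0, 47.9, 41.8, 32.5 and 38.1 CPM in naturals, and at 53.8, 74.5 and 90.8 CPM as the lowest, median and highest of IVF, all above the naturals (0.90 ± 0.15, edgeR adjusted p = 0.000143). Dnajc14, which helps receptors out of the ER, was at 27.3, 30.8, 35.5, 34.8 and 31.7 CPM in natural males and at 25.7, 21.8, 9.64, 27.2 and 18.8 CPM in IVF males. The lowest natural lay just above the highest IVF male, and the log2 fold change of -0.52 ± 0.19 had an edgeR adjusted p of 0.0444. It was called in 3 of the 10 fits that each left out 1 library. In females Dnajc14 was at 16.5, 26.7, 15.0, 15.5 and 24.4 CPM in naturals, and the lowest, median and highest of IVF were 26.2, 32.0 and 36.3 CPM, with 1 natural inside the IVF range (0.67 ± 0.17, edgeR adjusted p = 0.00392). Its exons share 55 bases on the same strand with Sarnp and 1114 bases on the opposite strand with Ormdl2.

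Dnajc10, a disulfide reductase of the ER, did not pass in either liver (0.09 ± 0.16 and 0.02 ± 0.15). The 95% intervals were -0.25 to 0.43 in males and -0.30 to 0.34 in females. Dnajc16 (-0.17 ± 0.23 and 0.38 ± 0.23) and Dnajc18 (0.09 ± 0.27 and 0.16 ± 0.24) did not pass either. Of these members that work with BiP in the ER, Dnajc1 and Dnajc3 were thus called in both livers and Dnajc10 in neither. With the GC trend removed, Dnajc10 was called in females (0.454, edgeR adjusted p = 0.0359) and Dnajc3 was not, whereas Dnajc1 was still called.

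Every called member of the nuclear, RNA and ribosome group was higher in IVF males and lower in IVF females. In males 3 of 6 passed (34.4% of all genes) and in females 4 of 6 (49.0%), and the group's medians were 1.04 and -0.98 on the log2 scale. Dnajc21, which assists the maturation of the large ribosomal subunit, was at 21.7, 17.4, 24.9, 23.2 and 23.7 CPM in natural males and at 52.3, 124, 149, 55.3 and 61.2 CPM in IVF males. The IVF values spread widely but all lay above the naturals, with a log2 fold change of 1.90 ± 0.27 (edgeR adjusted p = 0.000183). In females it was at 87.8, 39.6, 87.5, 53.2 and 58.5 CPM in naturals, and the lowest, median and highest of IVF were 20.3, 22.0 and 30.2 CPM, without overlap (-1.46 ± 0.19, edgeR adjusted p = 3.17e-05).

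Dnajc2, the ribosome-bound J protein that works with Hspa14 on nascent chains, was at 83.5, 35.8, 85.6, 63.7 and 47.7 CPM in natural females, and the lowest, median and highest of IVF were 16.3, 17.5 and 26.7 CPM. Every IVF female lay below every natural (-1.66 ± 0.22, edgeR adjusted p = 3.75e-05), and in males the mean rose from 19.1 ± 3.46 to 72.8 ± 45.1 CPM (1.84 ± 0.35). Dnajc9, a histone chaperone, was at 14.0, 8.53, 10.2, 9.46 and 11.9 CPM in natural females and at 4.38, 5.56 and 6.81 CPM as the lowest, median and highest of IVF, without overlap (-0.93 ± 0.19, edgeR adjusted p = 0.000786). In males Dnajc9 was at 7.32 ± 1.20 CPM in naturals and 10.4 ± 8.49 in IVF and did not pass (0.60 ± 0.34). Dnajc8 rose in males (1.48 ± 0.26) and fell in females (-1.02 ± 0.25). Dnajc17, a splicing protein, and Dnajc24, which takes part in making diphthamide, were at a mean of 1.96 to 3.68 CPM in every group of both livers, and neither passed.

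Of the mitochondrial members 1 of 6 passed in males, below the 34.4% of all genes, and 4 of 6 in females, against 49.0%. Dnajc15, an inner-membrane protein that restrains respiratory complex I, was at 9.05, 5.96, 7.73, 8.14 and 9.09 CPM in natural males and at 20.7, 22.4, 24.1, 23.6 and 41.9 CPM in IVF males. The groups were far apart (1.76 ± 0.23, edgeR adjusted p = 9.93e-05). In females it was at 30.5, 17.2, 25.4, 32.6 and 26.8 CPM in naturals, and the lowest, median and highest of IVF were 7.36, 10.0 and 20.6 CPM, with the second natural inside the IVF range (-1.20 ± 0.24, edgeR adjusted p = 0.000648). In females Dnajc28 also fell (-0.62 ± 0.14), and Dnajc11, a protein of the cristae, rose (0.44 ± 0.13), as did Dnajc30, which serves the respiratory chain (0.56 ± 0.17). None of these last 3 was called in females once the GC trend was removed. Dnajc19 (0.26 ± 0.17 in males, -0.34 ± 0.16 in females) and Dnajc4 (-0.09 ± 0.29 and 0.37 ± 0.20) did not pass. Dnajc19 has a pseudogene listed beside it in the adult tables, so its count may be split.

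In each sex the vesicle group had 1 called of 3 tested members (33.3%) and the cytosol group 1 of 2 (50%). Of all genes 34.4% passed in males and 49.0% in females. Dnajc13 rose in males (0.57 ± 0.17, edgeR adjusted p = 0.0191) and fell in females (-0.45 ± 0.13, adjusted p = 0.0104), and neither was called with the GC trend removed. Dnajc7 rose from 27.2 ± 2.45 to 52.0 ± 9.45 CPM in males (0.90 ± 0.16) and fell from 53.3 ± 16.8 to 29.4 ± 4.28 CPM in females (-0.85 ± 0.18). Dnajc5 (-0.33 ± 0.17 in males, 0.19 ± 0.13 in females), Dnajc27 (-0.48 ± 0.52, 0.31 ± 0.64) and Dnajc12 (1.08 ± 0.48, -0.01 ± 0.21) did not pass.

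**Figure D4:**
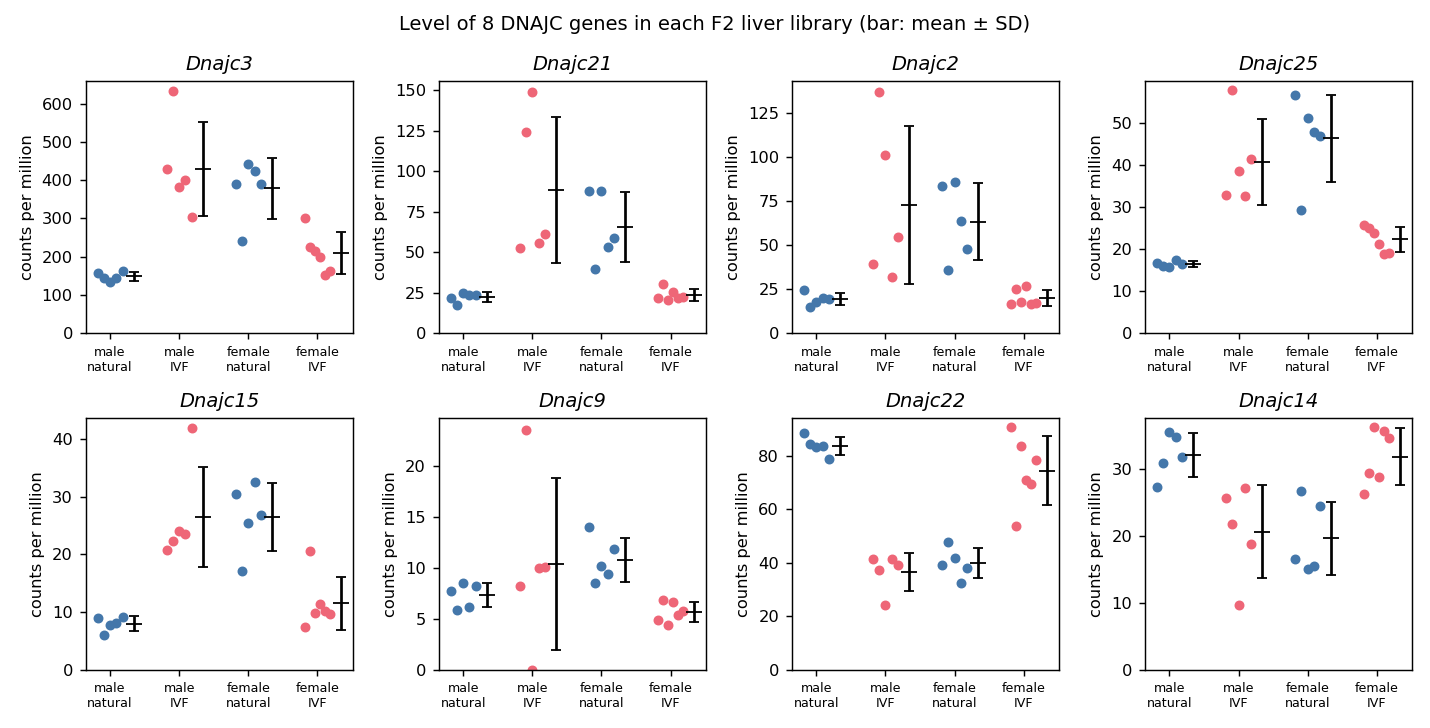
Level in CPM of 8 DNAJC genes in each F2 liver library, by sex and conception (blue natural, red IVF), with the mean ± SD beside the points. For each gene the means of natural males and IVF females lie nearer to each other than to those of the other groups, although Dnajc9 overlaps between natural and IVF males. Each sex was scaled on its own.

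The difference between the sexes was then tested directly, as the IVF effect in females less that in males in 1 fit over the 21 livers. It passed for 17 of 25 members, 5 with a positive and 12 with a negative difference, where 54.0% of all genes passed (28.1% positive and 25.9% negative). With the trend with gene length removed the split was 3 and 13. The 11 members called in both livers (Dnajc1, Dnajc2, Dnajc3, Dnajc7, Dnajc8, Dnajc13, Dnajc14, Dnajc15, Dnajc21, Dnajc22 and Dnajc25) all had opposite signs in the sexes and all passed this test. The largest differences were those of Dnajc2 (-3.48 ± 0.45), Dnajc21 (-3.34 ± 0.35) and Dnajc15 (-2.94 ± 0.34) among negative ones and of Dnajc22 (2.04 ± 0.21) and Dnajc14 (1.20 ± 0.26) among positive ones. Dnajc9, Dnajc11, Dnajc28 and Dnajc30 were called in females but not in males, and the difference between the sexes passed for each of them (-1.51, 0.66, -1.12 and 0.85). Opposite signs were not particular to the family. Of 3430 genes called in both livers 3417 had them, or 99.6%. On the scale of the single tables natural males and IVF females had like means for the leading members, as did IVF males and natural females: Dnajc3 was at 148, 209, 430 and 378 CPM in that order, and Dnajc22 at 83.6, 74.4, 36.6 and 39.9 CPM. No measured gene checks the conception label of a liver. An opposite effect in the sexes and an exchange of the natural and IVF labels in 1 sex therefore cannot be told apart here. The direction of each liver change rests on the labels, as do the levels given for natural livers and their contrasts with testis and ovary.

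The GC trend that set the liver libraries apart moved with the members. The 28 members summed to 661 to 714.5 CPM (median 691.6) in natural males and to 1000 to 1564 (1085) in IVF males. In females they summed to 824.1 to 1205 CPM (1077) in naturals and to 684.4 to 839.9 (753) in IVF. The group with the positive GC trend had the lower median sum in both sexes. Across all genes the log2 fold change correlated with GC content at a Spearman rho of -0.61 in males and 0.72 in females, which is across genes and not across replicates. The members had a median GC content of 47.3% against 49.9% for all genes tested. With the GC trend of each library removed, 10 members were called in males (8 higher and 2 lower, where 18.6% of all genes were called) and 11 in females (3 higher and 8 lower, 25.9%). Dnajc1, Dnajc2, Dnajc7, Dnajc8, Dnajc14, Dnajc15, Dnajc21, Dnajc22 and Dnajc25 were called in both sexes after this removal with their signs unchanged, Dnajc3 was called in males alone, and Dnajc9 and Dnajc10 in females alone. The difference between the sexes then passed for 14 members (35.1% of all genes). Without both male IVF libraries under 3000000 counts 11 members were called in males, where 34.3% of all genes were. Conception and the GC trend cannot be told apart in these livers beyond what the removal shows.

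**Figure D5:**
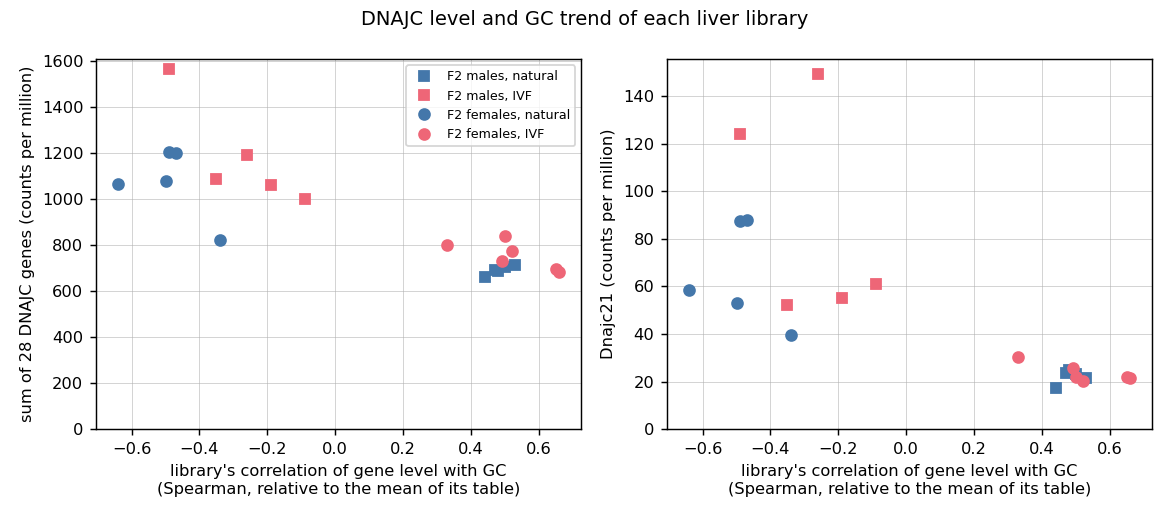
Summed level of the 28 DNAJC genes (left) and level of Dnajc21 (right), both in CPM, against the Spearman correlation of gene level with GC content in each liver library, taken relative to the mean of its own table. Natural males and IVF females lie at positive correlations with sums of at most 839.9 CPM, and IVF males and natural females lie at negative ones.

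Markers of other cells moved in part. The 6 hepatocyte markers summed to 66000 to 91100 CPM in natural males and 79700 to 133000 in IVF males, and 1 of them was called higher. In females they summed to 152000 to 234000 CPM in naturals and 100000 to 121000 in IVF, and 3 were called lower. Blood markers summed to 269 to 508 against 421 to 895 CPM in males, with 1 called higher and 2 lower, and to 456 to 754 against 153 to 376 CPM in females, with 2 lower. Kupffer cell markers summed to 102 to 186 against 106 to 214 CPM in males, with 2 of 5 higher, and to 109 to 238 against 111 to 227 in females, with 0. Their part in the DNAJC results was not tested.

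Of the HSP70 partners of the family, 7 of 14 tested passed in male livers (34.4% of all genes did), 6 being higher. In female livers 5 of 15 passed, 4 being lower, which is a smaller share than that of all genes (33.3% against 49.0%). Hspa8, the constitutive cytosolic HSP70, had a log2 fold change of 1.23 ± 0.25 in males and -0.73 ± 0.16 in females, and Hspa4, an exchange factor of the same family, 1.32 ± 0.20 and -1.26 ± 0.18. Hspa5, the ER partner of Dnajc3, rose in males (0.68 ± 0.20, edgeR adjusted p = 0.015), whereas in females its value was 0.02 ± 0.17. Hspa14, the partner of Dnajc2, passed in neither liver (0.06 ± 0.21 and -0.11 ± 0.16).

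Of 9 nucleotide exchange factors, which release the client by opening HSP70, 2 passed in males (22.2% against 34.4% of all genes) and 4 in females (44.4% against 49.0%), among them Bag1 (1.07 ± 0.19 and -0.98 ± 0.17) and Hspbp1 (-1.07 ± 0.30 and 1.65 ± 0.18). DNAJA genes passed in 2 of 4 cases in each sex, higher in males and lower in females (Dnaja2, 0.98 ± 0.19 and -0.99 ± 0.15). DNAJB genes passed in 4 of 9 in males (44.4%, 3 higher) and 7 of 9 in females (77.8%, 4 lower). Of DNAJC proteins with other symbols, Sec63, which couples BiP to the translocation channel, passed in both livers (1.54 ± 0.24 and -1.45 ± 0.17), and Gak, the second auxilin, in females (0.36 ± 0.13). In testes at E18.5, 1 of the 4 DNAJC genes with other symbols was called, higher in IVF (25% against 1.17% of all genes). In testes at 12 weeks Dnajb14 was called (0.32 ± 0.07).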

How the data were processed

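Bulk RNA-seq libraries of mouse testis, ovary and liver were used, 72 in 14 groups. The authors deposited whole-number counts of reads per gene, 1 table for each tissue, age and generation, with no normalization. The submitters' processing notes name Trimmomatic 0.32, STAR 2.3.0e, featureCounts 1.5.0, DESeq2 and the mm10 build. The labels name a stranded kit, and the strand setting of the counting and the annotation were not given in the sources used here. Library totals ran from 543745 to 90441392, which limits low members most in the shallowest livers.

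Each table was fitted alone with edgeR 4.0.16 (R 4.3.3): filterByExpr, TMM scaling, robust quasi-likelihood fit and two-sided F test. P-values were adjusted by the Benjamini-Hochberg method across every gene of the fit. A member was called at an adjusted p under 0.05, and a fold of 1.5 was given beside it. Log values used a prior count of 2. The livers of both sexes were fitted together for the sex difference, and naturals of 2 tissues or 2 ages for those contrasts. A limit for groups without a count was 3 counts over the group. GC and length trends were removed per library by lowess (span 0.3). Alternatives were DESeq2 1.42.0, its size factors, no filter, a replicate block, thinning (seed 7), halved counts, and each library left out. The block used only libraries whose replicate number was in both groups. Scripts were tested on simulated data.

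Members, role groups, partner lists (HSP70, nucleotide exchange factors, DNAJA, DNAJB, DNAJC under other symbols) and markers (hepatocyte, blood, Kupffer cell, spermatid, granulosa) were chosen with earlier results of these data known, so no test was run on a list. Part of the partner-list results is not reported here. Values in every library are given for up to 4 called members in each direction by adjusted p whose groups did not overlap (with overlap where fewer than 2 remained, as for Dnajc14 in female liver), otherwise for the member of smallest p, and in tissue and age contrasts for the 3 of largest fold in each direction. Dnajc3 and Dnajc15, which this rule names in male liver, are also shown in female liver. Replicates are samples the labels list separately, so p-values measure the spread between these samples. In F2 mice the conception compared was that of the sire, and the labels give neither sire nor litter. Samples of a group may share a sire or a litter, which the fits did not take into account. Promoter sequences are RefSeq's (GRCm38.p6) and gene spans GENCODE M21.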

Additional observations from a re-analysis of the deposited data

Results flagged for a closer look

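In 5 of 70 groups of 4 to 7 libraries, 1 library lay further from its neighbours than Dixon's 95% limit allows, and chance alone marks about 1 in 20 groups. Dnajc15 was at 41.9 CPM in the fifth IVF male liver, where the next was at 24.1 CPM. Dnajc22 was at 24.1 CPM in the third IVF male liver, the shallowest library, where the next was at 37.3 CPM. Dnajc8 was at 86.6 CPM in the fourth natural ovary, where the next was at 76.2 CPM. In the joint fit of ovary and liver, Dnajc18 was at 15.6 CPM in the first natural female liver (next 10.3) and Dnajc3 at 370 CPM in the second (next 589).

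The effect of IVF on the liver differed between the sexes by edgeR's test of the difference in 17 members, given here as the log2 effect in females less that in males. The difference was negative for Dnajc2 (-3.48), Dnajc21 (-3.34), Dnajc15 (-2.94), Dnajc8 (-2.48), Dnajc3 (-2.38), Dnajc25 (-2.33), Dnajc1 (-2.13), Dnajc7 (-1.74), Dnajc9 (-1.51), Dnajc28 (-1.12), Dnajc13 (-1.01) and Dnajc19 (-0.58). It was positive for Dnajc22 (2.04), Dnajc14 (1.20), Dnajc30 (0.85), Dnajc11 (0.66) and Dnajc5 (0.53).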

How the results depend on the processing

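The count of called members stayed within 1.5 times its value under every alternative run in each comparison except F2 testis, where the single call, Dnajc16, gave 0 with the 1.5-fold limit, the replicate block, thinning, or near-identical libraries summed, and the cause was not tested. Leaving out 1 library at a time gave 0 to 1 members in F2 testis, 9 to 11 in male liver, 14 to 17 in female liver, 15 to 18 for the sex difference, 24 to 27 for testis against liver, 16 to 19 for ovary against liver, 22 to 25 for 12 weeks against E18.5, and 0 in F1 testes and ovaries. DESeq2 called more genes than edgeR where few passed: 893 against 181 at E18.5, 419 against 150 at 12 weeks, 180 against 2 at 39 weeks, 739 against 345 in F2 testis and 153 against 0 in ovary. With the GC trend removed, the genes called fell from 4124 to 2228 in male liver, from 6134 to 3241 in female liver and from 7056 to 4590 for the sex difference. The libraries that differed least were replicates 3 and 4 of IVF F2 testis (mean chi-square per gene of 2.84). Next were replicates 1 and 2 of natural 39-week testis (3.06) and of natural F2 testis (3.69), and then came 4.37. They were counted separately, since a value near 1, or near 2 with both mates counted, would be sampling noise. Whether they came from separate animals was not tested. Summing such libraries moved the genes called in F2 testis from 345 to 134. The summing of near-identical libraries and the runs without shallow livers were chosen after seeing the data.

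Equal replicate numbers did not pair the samples: the correlation of their deviations was over 0.1 in 2 of 4 pairs at 39 weeks, in 1 of 5 in female liver and in 0 elsewhere. With the replicate block, 10 members were called in male liver, 14 in female liver, 15 for the sex difference, 27, 17 and 23 in the tissue and age contrasts, and 0 in testes and ovaries. The block fits held only libraries whose replicate number was in both groups. Where the groups were of unequal size, libraries were thus left out, and their loss and the block cannot be told apart. Over all genes the calls went from 181 to 2 at E18.5 and from 150 to 22 at 12 weeks with the block. In F2 testis they went from 345 to 205. Dnajc14 in male liver and Dnajc13 in female liver were among the calls lost.

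Of the values of single members, 5500 kept direction and side of the threshold under an alternative, 119 lost a call, 37 gained one and 33 changed sign. With the GC trend removed, Dnajc11 was at -0.026 in female liver. The sex difference was then -1.126 for Dnajc4, 0.644 for Dnajc10, -0.357 for Dnajc11, 0.626 for Dnajc19 and -0.222 for Dnajc30. Without the shallow male livers as well, it was -1.148 for Dnajc4, 0.633 for Dnajc10, -0.161 for Dnajc11, 0.568 for Dnajc19 and -0.092 for Dnajc30, and Dnajc4 in male liver was at 0.678. In testis against liver, Dnajc13 was at 0.042 with size factors and 0.051 with DESeq2's Wald test. The GC removal there gave -1.189 for Dnajc8, -0.842 for Dnajc10, -0.509 for Dnajc16, -0.146 for Dnajc17, -0.453 for Dnajc21 and -1.115 for Dnajc28. The length removal gave -0.595 for Dnajc4, -1.024 for Dnajc8, -0.183 for Dnajc10, -0.245 for Dnajc16, -1.554 for Dnajc17 and -0.436 for Dnajc28. In ovary against liver it gave -0.475 for Dnajc5 and -0.508 for Dnajc10. In 12 weeks against E18.5 it gave -0.741 for Dnajc8, 0.265 for Dnajc13, -0.049 for Dnajc17 and -0.727 for Dnajc24, and the GC removal gave -0.106 for Dnajc8. The cause was not tested.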
